A study of Mus musculus with 6 samples.

Results

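Collagen chain genes were taken as every row of the deposited count table whose symbol reads Col, a number, a and a number, which gave 44 of 25160 features. The markers Col9a1, Col11a1 and Col8a1 were among them. Whole tissue of the fourth mammary glands, without their lymph nodes, was sequenced from 3 metformin-treated and 3 control mice, 1 library per mouse. All were wild-type females of FVB/N, an inbred strain, on an estrogen-free AIN-93G diet. The metformin group received metformin intraperitoneally, 200 mg/kg each day over 10 weeks that began at 8 weeks and ended at 18 weeks of age, and the control group was given saline over the same weeks. Metformin is a biguanide drug used to lower blood glucose, and the question addressed here is whether transcripts of the collagen chains differ between the treated and the saline-injected gland. Libraries held 37705492 to 47370885 counts in the metformin group and 35375365 to 47056181 in the control group. Control mouse 3 stood apart from its group. Across the log2 CPM of the tested genes, which are not independent replicates, it correlated at 0.965, 0.953 and 0.967 with metformin-treated mice 1, 2 and 3 and at 0.950 and 0.946 with control mice 1 and 2. Why was not tested, and the main results are given with and without this mouse.

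Collagens are the main structural proteins of the extracellular matrix. Each is built of alpha chains that wind into a triple helix through the repeat Gly-X-Y, and the chains are made in the endoplasmic reticulum, where prolyl and lysyl residues are hydroxylated before folding. Fibrillar collagens form the fibres of the stroma, FACIT collagens (fibril-associated collagens with interrupted triple helices) sit on the surface of those fibres, network-forming collagens build beaded filaments or hexagonal lattices, basement membrane collagens line epithelium, fat cells and vessels, and transmembrane collagens are held in the cell membrane. In the mammary gland, fibroblasts make most fibrillar collagen, and type IV collagen surrounds the ducts and each adipocyte.

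The types differ in how long the Gly-X-Y repeat runs without a break, which can be read from the coding sequence because glycine is encoded by GGN. In the coding sequences of GENCODE vM21, which were found for all 44 members, the longest uninterrupted run held 216 to 344 repeats in the 11 fibrillar members (median 338). The runs were shorter in the other types, with 32 to 113 repeats in the 9 FACIT members, 37 to 87 in the 9 network-forming members, 30 to 75 in the 9 basement membrane members and 40 to 56 in the 4 transmembrane members. Col26a1 and Col28a1, which were put in none of the 5 types, had 28 repeats at most. Because the results turn on Col9a1, Col11a1 and Col8a1, the first 8 repeats of the longest run of each are printed, 5′ to 3′ on the coding strand, with the glycine codons in capitals. They begin at codon 418 of Col9a1, codon 527 of Col11a1 and codon 352 of Col8a1. The same frame of glycine codons runs through all 3 stretches, and the X and Y codons between them differ.
Col9a1: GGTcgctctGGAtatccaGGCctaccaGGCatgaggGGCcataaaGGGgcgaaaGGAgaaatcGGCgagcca
Col11a1: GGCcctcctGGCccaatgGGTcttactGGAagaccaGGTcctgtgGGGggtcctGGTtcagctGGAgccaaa
Col8a1: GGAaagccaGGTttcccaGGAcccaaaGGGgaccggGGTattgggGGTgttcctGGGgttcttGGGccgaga

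Of the 44 members, 39 had enough counts to be tested among 15925 features with the edgeR quasi-likelihood test. The untested members were Col2a1, the fibrillar chain of cartilage, with 7 counts over all 6 libraries, Col10a1, a chain of hypertrophic cartilage, with 38, Col19a1 with 2, Col6a4 with 26 and Col26a1 with 24. In the tested members, 4 chains from 4 different types were lower in the metformin group at the thresholds of the study, which ask for a 1.5-fold difference and an unadjusted p below 0.01. They were the FACIT chain Col9a1, the fibrillar chain Col11a1, the network-forming chain Col8a1 and the basement membrane chain Col4a5. They made up 10.3% of the tested members, against 1.28% of all tested features called lower. No member was called higher, against 0.421% of all features. The abundant chains of the stroma, among them Col1a1, Col1a2 and Col3a1, were not called. In whole tissue, fewer cells of a type and less RNA per cell cannot be told apart.

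These calls rest on unadjusted p-values of edgeR, whereas the study applied its thresholds with DESeq2. With Benjamini-Hochberg adjustment over 15925 features, edgeR on all mice called no gene at an adjusted p under 0.05 (smallest adjusted p = 0.539). Before adjustment, 1199 features lay below 0.05. The limma-voom fit, which gave each library a quality weight, called none either, with 1579 features below 0.05 before adjustment. DESeq2 on the same features called 200, of which 3 were collagen chains (Col9a1, Col11a1 and Col8a1), all lower in the metformin group. These are 7.69% of the tested members, against 1.00% of all features called lower by DESeq2, and no member was among the 0.251% called higher. At the thresholds of the study, DESeq2 called 6 members lower, which added Col6a6 and Col6a5 to the edgeR calls, against 2.47% of all features lower, and no member higher, against 0.785% of all features.

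Over all 39 tested members, the median log2 fold change of metformin over control was -0.084, with 19 members higher and 20 lower, against a median of 0.011 over all tested features, of which 8170 were higher and 7755 lower. The types differed in the side on which their members lay. Of the fibrillar members, 9 of 10 were higher (median log2 fold change 0.44), while 6 of 8 FACIT members were lower (median -0.57) and all 4 transmembrane members were lower (median -0.20). The network-forming members were split, with 3 higher and 4 lower (median -0.66), as were the basement membrane members, with 5 higher and 4 lower (median 0.15). Few of these members passed a test on their own, so these are counts of direction only.

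**Figure D1:**
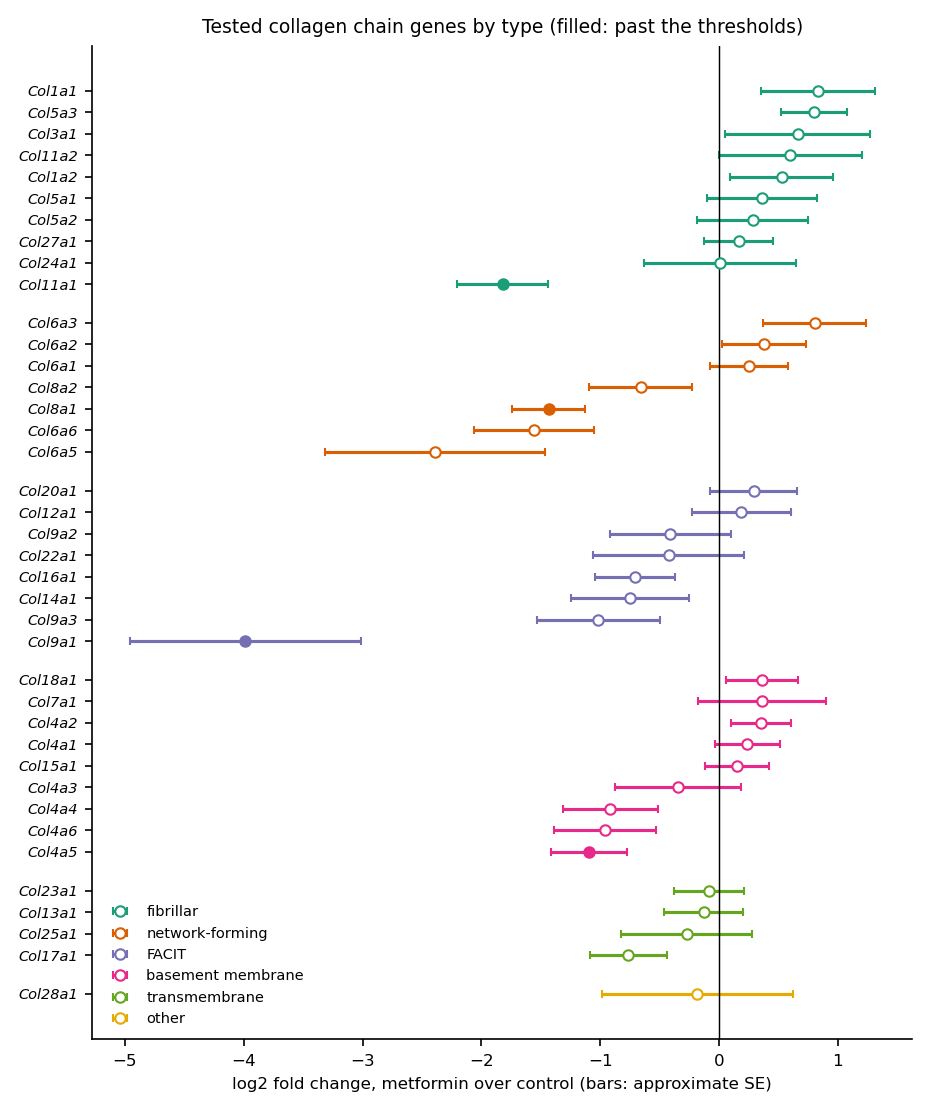
log2 fold change of metformin over control from edgeR on the x axis for the 39 tested collagen chain genes, 1 row per gene, grouped and coloured by type, with bars of 1 approximate SE; filled points passed the thresholds of a 1.5-fold difference and an unadjusted p below 0.01. The 4 filled points, Col11a1, Col8a1, Col9a1 and Col4a5, lie below 0, each in a different type, and Col9a1 lies farthest out at -3.98.

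Col9a1 encodes the alpha1 chain of type IX collagen, a FACIT chain best known from the surface of cartilage fibrils. Its level, as CPM after TMM normalization, was 4.87, 0.986 and 2.30 in metformin-treated mice 1, 2 and 3, against 55.4, 69.3 and 4.94 in control mice 1, 2 and 3. Control mice 1 and 2 stood far above all others, whereas control mouse 3 was next to metformin-treated mouse 1, and the groups were apart only by that narrow gap. The means were 2.72 ± 1.97 CPM in the metformin group and 43.2 ± 33.9 CPM in the control group (SD, 3 mice each). The log2 fold change was -3.98 ± 0.97 (SE), with an unadjusted edgeR p of 0.0039 and an adjusted p of 0.539, and the DESeq2 adjusted p was 0.0262. Without control mouse 3 the log2 fold change was -4.51 (edgeR adjusted p = 0.0372), and with that mouse as the only control it was -0.86. Without control mouse 2, metformin-treated mouse 2 or metformin-treated mouse 3, the unadjusted edgeR p was 0.0129, 0.0126 and 0.0199, past the 0.01 threshold in none of the 3 fits.

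Type IX collagen is assembled from the products of Col9a1, Col9a2 and Col9a3, and the other chains did not follow Col9a1 in size. Col9a2 had 6.78, 3.80 and 9.41 CPM in metformin-treated mice and 5.11, 15.7 and 5.65 CPM in control mice, a log2 fold change of -0.41 with overlapping groups. Col9a3 had 6.38, 3.54 and 3.58 CPM in metformin-treated mice and 5.81, 16.7 and 4.72 CPM in control mice, a log2 fold change of -1.01 (edgeR adjusted p = 0.722). Per length, the ratio of Col9a1 to Col9a2 FPKM was 0.186 to 0.549 in metformin-treated mice and 0.835 to 10.4 in control mice. Col9a1 was the lower of the pair in every metformin-treated mouse and exceeded Col9a2 in control mice 1 and 2. Over the 6 mice, the features whose log2 CPM followed Col9a1 most closely were the unannotated NewGene_2474 (Pearson r = 0.996), Frrs1 (0.996) and C5ar2 (0.994), given as a description over libraries that share 2 high control mice.

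Milk protein transcripts were also high in control mice 1 and 2. The summed level of 9 milk protein genes (caseins, Wap, Lalba, Btn1a1 and Glycam1) was 260, 329 and 829 CPM in metformin-treated mice 1, 2 and 3, against 41429, 35682 and 616 CPM in control mice 1, 2 and 3. In control mouse 3 this sum lay within the metformin range, and Col9a1 lay close above its own metformin range. Of the tested milk genes, Csn3 and Btn1a1 were above every metformin-treated mouse in control mouse 3, and the others lay within the range. Csn3 had 342 CPM there, against 161 to 224 CPM in metformin-treated mice, and Btn1a1 had 92.0 CPM, against 37.0 to 58.3 CPM. The part of the milk transcripts in the collagen result was not tested. Of 9 cartilage markers, 4 were tested, and the proteoglycan and matrilin genes Acan and Matn3 had no count in any library. Their summed level was 22.9, 20.0 and 20.8 CPM in metformin-treated mice, against 34.1, 65.4 and 18.2 CPM in control mice, and most of it came from Sox9, a transcription factor also made in epithelium. The 10 general epithelial markers summed to 935, 612 and 743 CPM in metformin-treated mice and 865, 1606 and 939 CPM in control mice, with control mouse 2 the highest and the sums overlapping. Of the 10, 9 were lower in the metformin group (median log2 fold change -0.69). Cdh1, which encodes E-cadherin, had 49.2, 49.3 and 45.8 CPM in metformin-treated mice, against 62.2, 121.3 and 76.97 CPM in control mice, with no overlap. It was just past the thresholds, with an unadjusted edgeR p of 0.00958, an adjusted p of 0.541 and a DESeq2 adjusted p of 0.111. The part of the epithelium in the collagen values was not tested.

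Col11a1 encodes a chain of type XI collagen, a minor fibrillar collagen that is incorporated into growing fibrils and helps set their diameter. It was present at a low level, 1.64, 1.90 and 2.15 CPM in metformin-treated mice 1, 2 and 3, against 3.90, 9.85 and 6.38 CPM in control mice 1, 2 and 3. Every metformin-treated mouse lay below every control mouse, and the metformin-treated mice differed little from each other. The means were 1.90 ± 0.254 CPM in the metformin group and 6.71 ± 2.99 CPM in the control group (SD, 3 mice each), a log2 fold change of -1.82 ± 0.38 (SE). The unadjusted edgeR p was 0.00167, the adjusted p was 0.539 and the DESeq2 adjusted p was 0.00221. This gene stayed past the thresholds with each mouse left out in turn, with a log2 fold change between -2.09 and -1.44. Without control mouse 3 the log2 fold change was -1.86 (edgeR adjusted p = 0.168), and with that mouse as the only control it was -1.75. The other type XI chain, Col11a2, had 1.09, 4.38 and 1.20 CPM in metformin-treated mice and 1.34, 1.97 and 1.08 CPM in control mice, with a log2 fold change of 0.60 (edgeR adjusted p = 0.832), and metformin-treated mouse 2 was the highest of all.

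Col8a1 encodes a chain of type VIII collagen, a short-chain collagen that forms hexagonal lattices and is known from vessel walls and the membrane beneath the corneal endothelium. Its level was 7.60, 17.2 and 10.1 CPM in metformin-treated mice 1, 2 and 3, against 32.5, 35.9 and 25.9 CPM in control mice 1, 2 and 3. The groups were clearly apart, control mouse 3 included. The means were 11.6 ± 4.96 CPM in the metformin group and 31.4 ± 5.11 CPM in the control group (SD, 3 mice each), a log2 fold change of -1.43 ± 0.31 (SE), with an unadjusted edgeR p of 0.00187, an adjusted p of 0.539 and a DESeq2 adjusted p of 0.00546. Leaving out metformin-treated mouse 3 gave an edgeR p of 0.0105, just outside the threshold, and the log2 fold change lay between -1.82 and -1.24 with each mouse left out. The log2 fold change was -1.55 without control mouse 3 (edgeR adjusted p = 0.135) and -1.15 with that mouse as the only control.

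The partner chain Col8a2 was lower in level per length, with a mean of 0.264 FPKM over the 6 mice beside 3.93 FPKM for Col8a1, and had 0.978, 0.866 and 0.976 CPM in metformin-treated mice and 0.822, 1.99 and 1.64 CPM in control mice, with overlapping groups and a log2 fold change of -0.66 (edgeR adjusted p = 0.765). The 8 endothelial markers (5 higher and 3 lower, none with an unadjusted edgeR p under 0.05) summed to 719, 824 and 801 CPM in metformin-treated mice and 711, 683 and 800 CPM in control mice. The 8 smooth muscle and pericyte markers (3 higher and 5 lower) summed to 1341, 1865 and 1422 CPM in metformin-treated mice and 1588, 1620 and 1516 CPM in control mice. Both sums overlapped between the groups, but single markers did not. Myh11, the smooth muscle myosin heavy chain, had 61.9, 58.7 and 76.0 CPM in metformin-treated mice, against 103.2, 138.6 and 115.5 CPM in control mice. Its log2 fold change of -0.86 was past the thresholds of the study (edgeR adjusted p = 0.539, DESeq2 adjusted p = 0.00832). Acta2 was also lower without overlap (-0.52), and Cspg4 and Esam were higher without overlap (0.57 and 0.29). Myh11 and Acta2 are also made by myoepithelial cells of the gland, so their values do not tell vessel wall from epithelium. The part of any of these cells in the Col8a1 value was not tested. The features closest to Col8a1 over the 6 mice were Itgbl1 (Pearson r = 0.985), Fads6 (0.985) and Hsp90ab1 (0.973), given as a description only.

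The 3 chains with a DESeq2 adjusted p under 0.05 lie on separate chromosomes, and none shares exonic bases with another gene in GENCODE vM21. On GRCm38, Col9a1 lies on chromosome 1 (24177610 to 24252684), Col11a1 on chromosome 3 (114030540 to 114220718) and Col8a1 on the minus strand of chromosome 16 (57624258 to 57754737). Because all 3 were lower in the metformin group, the 250 bases before the transcription start of each, from RefSeq on GRCm38.p6, are printed 5′ to 3′ on the strand of the gene. Capitals mark matches on either strand to 5 motifs, namely the TATA box TATAAA, the CCAAT box CCAAT, the GC box GGGCGG, the GAS element TTCNNNGAA and the SOX motif AACAAT. Of the starts of Col9a1, the upstream one is shown.
Col9a1 chr1:24177360-24177609 (+): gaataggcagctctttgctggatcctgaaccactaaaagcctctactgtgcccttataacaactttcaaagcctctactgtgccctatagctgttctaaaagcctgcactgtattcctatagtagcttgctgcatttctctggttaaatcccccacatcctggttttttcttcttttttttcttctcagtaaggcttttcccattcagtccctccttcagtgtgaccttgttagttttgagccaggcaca
Col11a1 chr3:114030290-114030539 (+): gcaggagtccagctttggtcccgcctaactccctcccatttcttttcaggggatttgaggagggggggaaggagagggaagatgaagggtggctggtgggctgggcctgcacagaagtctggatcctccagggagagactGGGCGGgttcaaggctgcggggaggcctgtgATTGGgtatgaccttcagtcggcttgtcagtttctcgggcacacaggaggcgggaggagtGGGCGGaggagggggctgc
Col8a1 chr16:57754738-57754987 (-): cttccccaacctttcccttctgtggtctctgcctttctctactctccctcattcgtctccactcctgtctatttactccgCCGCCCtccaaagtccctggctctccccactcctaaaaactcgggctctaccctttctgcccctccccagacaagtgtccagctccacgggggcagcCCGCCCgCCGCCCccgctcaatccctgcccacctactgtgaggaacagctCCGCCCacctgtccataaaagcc

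No motif was found in all 3 sequences. The Col9a1 sequence shown holds none of the 5 motifs, while its downstream start holds 1 CCAAT box, the Col11a1 sequence holds 2 GC boxes and 1 CCAAT box, and the Col8a1 sequence holds 4 GC boxes. RefSeq entries were found for 35 of the 44 members, with 38 starts. Among these, 57.9% held a GC box, 34.2% a CCAAT box, 13.2% a TATA box, 5.26% a GAS element and 2.63% a SOX motif. Among the 32851 starts of the whole table, 32.7% held a GC box, 33.8% a CCAAT box, 12.4% a TATA box, 7.02% a GAS element and 9.42% a SOX motif. Such a match describes the letters and is not a binding site.

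**Figure D2:**
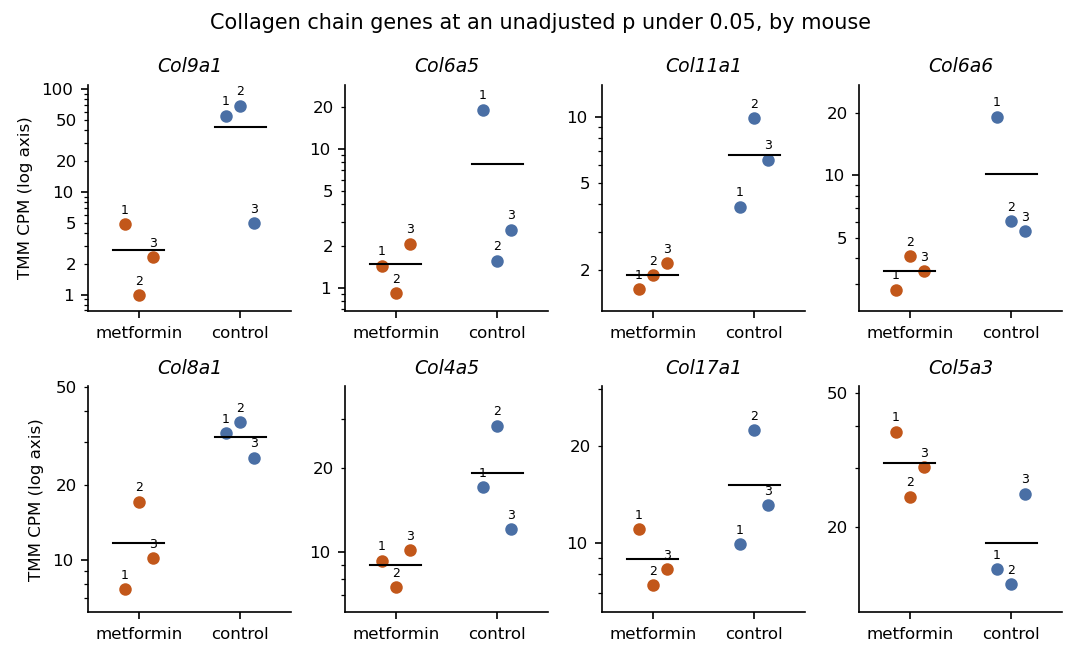
TMM-normalized CPM on a log axis, 1 panel per collagen chain gene with an unadjusted edgeR p under 0.05; points are single mice with their number, metformin left and control right, and lines are group means. Col8a1 and Col11a1 are lower in all 3 metformin-treated mice than in any control mouse, Col9a1 has control mouse 3 (4.94 CPM) beside metformin-treated mouse 1 (4.87 CPM), Col6a5 is high in control mouse 1 alone, and Col5a3 has the metformin group on the higher side.

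At an unadjusted edgeR p under 0.05, 7 members were lower in the metformin group (17.9% of those tested, against 4.85% of all features) and 1 was higher (against 2.68% of all features). The lower ones were the 4 described at the stricter thresholds and Col6a6, Col6a5 and Col17a1, and the higher one was Col5a3. The groups did not overlap, with the metformin group lower, for 6 members (15.4%, against 7.01% of all features), namely Col9a1, Col11a1, Col8a1, Col4a5, Col6a6 and Col4a4. For no member did the metformin group lie wholly above the control group, against 6.24% of all features.

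Among the other fibrillar chains, Col3a1, Col1a2 and Col1a1 were the most abundant, with mean levels of 143, 84.5 and 46.6 FPKM over the 6 mice. Type I collagen is the main fibre of connective tissue and type III is found with it in soft tissue. Of the exonic bases of Col3a1, 141 are shared with Gm47302 on the same strand. Col3a1 had 1222, 618 and 1252 CPM in metformin-treated mice 1, 2 and 3, against 388, 253 and 1311 CPM in control mice 1, 2 and 3. Col1a1 had 419, 218 and 488 CPM in metformin-treated mice, against 148, 118 and 365 CPM in control mice. Col1a2 had 611, 322 and 756 CPM in metformin-treated mice, against 295, 253 and 624 CPM in control mice. In all 3 genes metformin-treated mice 1 and 3 and control mouse 3 were high, and metformin-treated mouse 2 and control mice 1 and 2 were low, so the groups overlapped. The log2 fold changes were 0.66 ± 0.61 for Col3a1, 0.53 ± 0.44 for Col1a2 and 0.83 ± 0.48 for Col1a1 (SE), with edgeR adjusted p-values of 0.812, 0.798 and 0.746.

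These values turned on control mouse 3. Without it, the log2 fold changes were 1.69 for Col3a1 and 1.496 for Col1a1, both past the thresholds, 9 members and 666 of all features passed in either direction, and with control mouse 3 as the only control they were -0.35 and 0.037. Over the 12 members with a mean of at least 10 FPKM, 11 were higher in the metformin group, and in those same 11 the 3 highest mice by FPKM were metformin-treated mice 1 and 3 and control mouse 3. The exception was Col14a1. Of the 13 members between 1 and 10 FPKM, 4 were higher and 9 lower, and of the 14 tested members under 1 FPKM, 4 were higher and 10 lower. The 10 fibroblast markers summed to 1808, 1298 and 2453 CPM in metformin-treated mice and 1746, 1774 and 2756 CPM in control mice, with metformin-treated mouse 3 and control mouse 3 the highest. Markers of fat cells summed to 16320, 18645 and 13746 CPM in metformin-treated mice and 12442, 10948 and 13797 CPM in control mice. Skeletal muscle markers summed to 11617, 23965 and 17028 CPM in metformin-treated mice and 14911, 13525 and 14682 CPM in control mice, so that metformin-treated mouse 2, low in fibrillar chains, was the highest. Schwann cell markers summed to 385, 330 and 404 CPM in metformin-treated mice and 444, 359 and 450 CPM in control mice. By direction, 8 of the 10 fibroblast markers and 6 of the 8 Schwann cell markers were lower in the metformin group. All 8 fat cell markers and 7 of the 8 skeletal muscle markers were higher. Of the Schwann cell markers, Sox10 had 22.2, 18.4 and 24.4 CPM in metformin-treated mice, against 60.9, 111.8 and 18.6 CPM in control mice. The part of these cell types in the collagen values was not tested.

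The remaining fibrillar chains were of lower level. Type V collagen starts the assembly of type I fibrils, and its chain Col5a3 was the one member higher at an unadjusted p under 0.05. It had 38.4, 24.6 and 30.1 CPM in metformin-treated mice 1, 2 and 3, against 14.9, 13.4 and 25.1 CPM in control mice 1, 2 and 3. Control mouse 3 lay within the metformin range, and the other control mice lay below it. The log2 fold change was 0.80 ± 0.28 (SE), with an edgeR p of 0.0227 and an adjusted p of 0.605. The other type V chains, Col5a1 and Col5a2, had log2 fold changes of 0.36 and 0.28, and Col27a1 and Col24a1, which are also fibrillar, had 0.16 and 0.0096, with no edgeR p under 0.05.

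**Figure D3:**
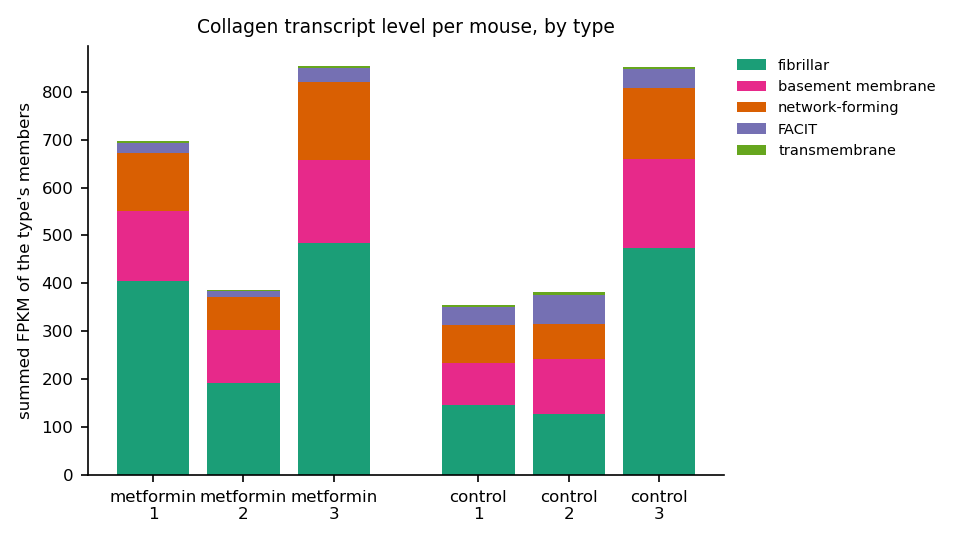
Summed FPKM of the collagen chain genes of each of 5 types as stacked bars, 1 bar per mouse, metformin-treated mice left and control mice right. Metformin-treated mice 1 and 3 and control mouse 3 reach 697, 854 and 852 FPKM in all, and metformin-treated mouse 2 and control mice 1 and 2 reach 387, 355 and 382 FPKM, most of the gap being in the fibrillar type.

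Summed over each type, the fibrillar chains had 405, 191 and 485 FPKM in metformin-treated mice 1, 2 and 3, against 147, 128 and 475 FPKM in control mice 1, 2 and 3. The FACIT chains had 20.8, 12.6 and 29.9 FPKM in metformin-treated mice, against 39.2, 60.5 and 37.9 FPKM in control mice. The FACIT type was the only one of the 5 whose sum was lower in every metformin-treated mouse than in any control mouse, and the fibrillar, network-forming, basement membrane and transmembrane sums overlapped. Col9a1 gave 15.7 and 22.0 FPKM of the FACIT sum in control mice 1 and 2 but 1.65 FPKM in control mouse 3, where Col14a1 gave 19.6 FPKM. All collagen chain genes together took 0.441%, 0.234% and 0.515% of the counts in metformin-treated mice and 0.208%, 0.224% and 0.501% in control mice. Col3a1, Col1a2 and Col4a1 alone made up 36.6% to 52.9% of the collagen FPKM of a mouse.

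Apart from Col9a1, the FACIT chains with the highest level were Col14a1 and Col16a1. Col14a1, a chain that binds fibril surfaces, had 23.7, 21.6 and 54.3 CPM in metformin-treated mice 1, 2 and 3, against 48.4, 27.9 and 91.3 CPM in control mice 1, 2 and 3, a log2 fold change of -0.75 ± 0.50 (SE, edgeR adjusted p = 0.766). Col16a1 had 40.9, 22.2 and 43.0 CPM in metformin-treated mice, against 47.2, 83.2 and 42.6 CPM in control mice, a log2 fold change of -0.71 ± 0.33 (SE, edgeR adjusted p = 0.698). Groups overlapped in both, and Col14a1 was highest in control mouse 3 while Col16a1 was highest in control mouse 2. Of the other FACIT chains, Col12a1 and Col20a1 had log2 fold changes of 0.19 and 0.29 and Col22a1 of -0.42, all with overlapping groups.

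Type VI collagen forms beaded filaments near cells, and its main chains are Col6a1, Col6a2 and Col6a3. Col6a3 had 229, 108 and 242 CPM in metformin-treated mice 1, 2 and 3, against 77.5, 73.7 and 179.8 CPM in control mice 1, 2 and 3, with a log2 fold change of 0.81 ± 0.43 (SE, edgeR adjusted p = 0.726). Col6a1 had 196, 135 and 258 CPM in metformin-treated mice, against 139, 120 and 237 CPM in control mice, with a log2 fold change of 0.25. Col6a2 had 230.5, 144 and 291 CPM in metformin-treated mice, against 152, 113 and 246 CPM in control mice, with a log2 fold change of 0.38. The groups overlapped in all 3 genes, and control mouse 3 was the highest of the control mice in each.

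The paralogues Col6a5 and Col6a6, which lie side by side on chromosome 9 and encode chains that resemble that of Col6a3, were on the lower side. Col6a6 had 2.82, 4.09 and 3.45 CPM in metformin-treated mice 1, 2 and 3, against 19.1, 6.04 and 5.40 CPM in control mice 1, 2 and 3, a log2 fold change of -1.56 ± 0.51 (SE, edgeR adjusted p = 0.576). Its groups did not overlap, but control mouse 1 stood far above the others, and without that mouse the log2 fold change was -0.73. Col6a5 had 1.44, 0.914 and 2.08 CPM in metformin-treated mice, against 19.1, 1.57 and 2.62 CPM in control mice, a log2 fold change of -2.39 ± 0.93 (SE, edgeR adjusted p = 0.642). This value rests on control mouse 1, without which it was -0.50. Of the exonic bases of Col6a6, 63 are shared with Gm38314 on the opposite strand, and the sources used here do not state whether counting used the strand.

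Basement membrane collagen is mainly built of Col4a1 and Col4a2, whose chains assemble together and whose genes lie head to head, with starts 21 bases apart on chromosome 8 and 22 shared exonic bases. Col4a1 had 477, 415 and 512 CPM in metformin-treated mice 1, 2 and 3, against 300.0, 337 and 553 CPM in control mice 1, 2 and 3, a log2 fold change of 0.24 ± 0.27 (SE, edgeR adjusted p = 0.848). Col4a2 had 314, 260 and 343 CPM in metformin-treated mice, against 188, 208 and 321 CPM in control mice, a log2 fold change of 0.35 ± 0.25 (SE, edgeR adjusted p = 0.779). Both were lowest in control mice 1 and 2. Col15a1 and Col18a1, whose products hold the zone beneath basement membranes and release fragments that act on vessels, had log2 fold changes of 0.15 and 0.36. Col15a1 had 92.7, 81.6 and 116.6 CPM in metformin-treated mice, against 62.3, 78.5 and 121.3 CPM in control mice, so that control mouse 3 was the highest of all.

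The minor type IV chains lay on the other side. Col4a5, an X-linked chain of the specialised networks found in kidney and skin, had 9.34, 7.48 and 10.2 CPM in metformin-treated mice 1, 2 and 3, against 17.1, 28.4 and 12.1 CPM in control mice 1, 2 and 3. The groups did not overlap, with control mouse 3 the nearest to the metformin group. The log2 fold change was -1.10 ± 0.32 (SE), with an unadjusted edgeR p of 0.00954, just inside the threshold, an adjusted p of 0.541 and a DESeq2 adjusted p of 0.092. The call was lost without any one mouse other than control mouse 3. The edgeR p was 0.0164 without control mouse 1, 0.0274 without control mouse 2, 0.0234, 0.0336 and 0.0202 without metformin-treated mouse 1, 2 and 3, and 0.00176 without control mouse 3. With control mouse 3 as the only control the log2 fold change was -0.43.

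Its neighbour Col4a6, whose start lies 1309 bases away, had 9.18, 6.23 and 6.98 CPM in metformin-treated mice and 9.71, 25.4 and 8.41 CPM in control mice, a log2 fold change of -0.96 (edgeR adjusted p = 0.678). The shared high mouse was control mouse 2, which also held the highest epithelial marker sum. Col4a4, a partner of Col4a3 in another specialised network, had 0.756, 0.962 and 1.58 CPM in metformin-treated mice and 2.01, 2.41 and 1.78 CPM in control mice, a log2 fold change of -0.91 (edgeR adjusted p = 0.664), with groups that did not overlap. Col4a3 had a log2 fold change of -0.34, and Col7a1, which anchors epithelium to the stroma, 0.36.

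Among the transmembrane collagens, Col17a1, a component of hemidesmosomes in basal epithelium, was the most abundant. It had 11.03, 7.41 and 8.31 CPM in metformin-treated mice 1, 2 and 3, against 9.92, 22.4 and 13.1 CPM in control mice 1, 2 and 3. Metformin-treated mouse 1 lay above control mouse 1, so the groups overlapped, and control mouse 2 was the highest. The log2 fold change was -0.76 ± 0.32 (SE), with an edgeR p of 0.048 and an adjusted p of 0.661, and it was -0.37 without control mouse 2. Col13a1 had 4.47, 2.96 and 4.81 CPM in metformin-treated mice, against 3.29, 5.92 and 4.15 CPM in control mice. Col23a1 had 3.56, 4.38 and 5.38 CPM in metformin-treated mice, against 4.14, 3.91 and 6.06 CPM in control mice. Both overlapped widely, and Col13a1, Col23a1 and Col25a1 had log2 fold changes of -0.13, -0.084 and -0.27. Col28a1, outside the 5 types, had -0.18.

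Chains were compared by the ratio of their FPKM within each mouse, over 9 pairs within one type of collagen and over Col1a1 to Col3a1, and these ratios are a description without a test. Col1a1 to Col1a2 was 0.618, 0.608 and 0.581 in metformin-treated mice 1, 2 and 3 and 0.454, 0.421 and 0.527 in control mice 1, 2 and 3, so the ratio was higher in every metformin-treated mouse than in any control mouse. Col6a3 to Col6a1 was 0.363 to 0.532 in metformin-treated mice and 0.255 to 0.346 in control mice, again without overlap. Col4a1 to Col4a2 was 1.46 to 1.56 in metformin-treated mice and 1.55 to 1.68 in control mice, and Col4a5 to Col4a6 was 1.03 to 1.72 in metformin-treated mice and 1.23 to 1.79 in control mice, with overlap in both. The ratio was without overlap in 4 of the 9 pairs, the further such pairs being Col9a1 to Col9a2 and Col9a1 to Col9a3. Both of these hold Col9a1, so they are not independent, and no share over other gene pairs was computed beside this count. Col4a3 to Col4a4 overlapped, with 0.177 to 0.932 in metformin-treated mice and 0.325 to 0.357 in control mice. Col6a1 to Col6a2 also overlapped, with 0.833 to 0.923 in metformin-treated mice and 0.897 to 1.05 in control mice. Col1a1 to Col3a1, across types I and III, was 0.322 to 0.366 in metformin-treated mice and 0.261 to 0.438 in control mice. Col5a1 to Col5a2 was 0.475 to 0.718 in metformin-treated mice and 0.512 to 0.641 in control mice.

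**Figure D4:**
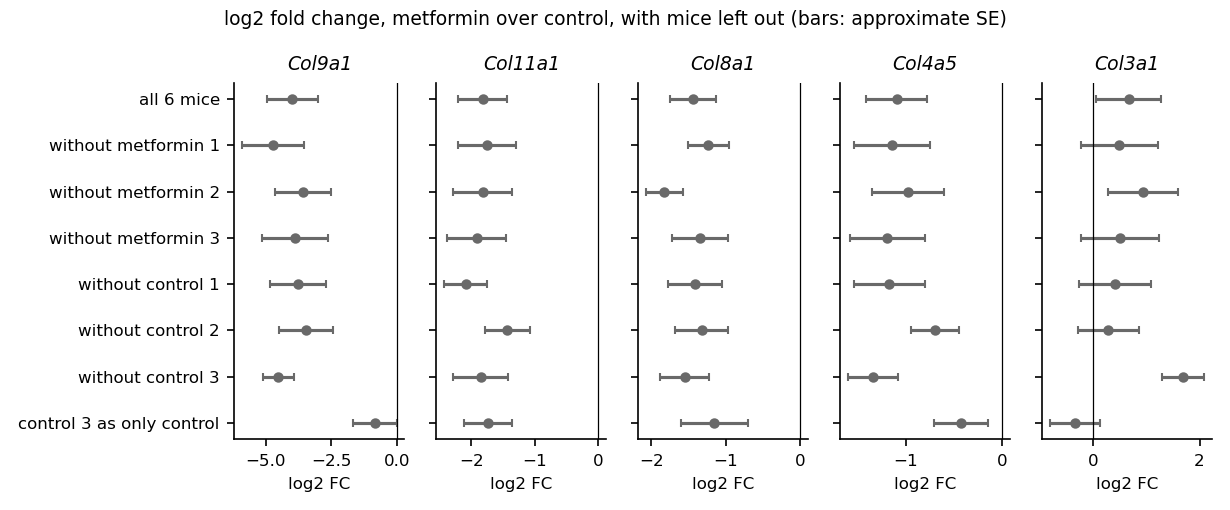
log2 fold change of metformin over control on the x axis for 5 collagen chain genes, with 1 approximate SE, over all 6 mice, without each mouse in turn and with control mouse 3 as the only control. Col11a1 and Col8a1 stay below 0 by a similar amount in each fit, Col9a1 moves to -0.86 with control mouse 3 alone, and Col3a1 runs from 1.69 without control mouse 3 to -0.35 with it alone.

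Of 41 genes for the synthesis, processing and receptors of collagen, 39 were tested, of which 21 were higher and 18 lower, and edgeR called none at the thresholds of the study, against 1.28% and 0.421% of all features lower and higher. DESeq2 and limma-voom each called 1, P3h2, lower. At the same thresholds DESeq2 called 2.47% of all features lower, and limma-voom called 401 features in either direction. Of the 18 genes of chain synthesis and folding (median log2 fold change 0.085), 2 were lower and 1 higher at an unadjusted p under 0.05, beside 4.85% lower and 2.68% higher of all features. P4ha1, the catalytic subunit of a prolyl 4-hydroxylase, had 62.4, 60.6 and 74.8 CPM in metformin-treated mice, against 98.6, 82.4 and 110.0 CPM in control mice, a log2 fold change of -0.56 (edgeR adjusted p = 0.56). P3h2, a prolyl 3-hydroxylase that acts on type IV collagen, had 9.14, 8.80 and 12.6 CPM in metformin-treated mice, against 21.6, 27.3 and 11.1 CPM in control mice, a log2 fold change of -0.97 (edgeR adjusted p = 0.605). Crtap, a partner of another prolyl 3-hydroxylase, had 72.3, 63.8 and 79.6 CPM in metformin-treated mice, against 53.6, 52.1 and 56.6 CPM in control mice, a log2 fold change of 0.41 (edgeR adjusted p = 0.605). P4ha1 and Crtap did not overlap between the groups, whereas P3h2 in control mouse 3 lay within the metformin range. No gene among 12 tested genes of procollagen processing and cross-linking (median 0.13) or 9 tested collagen receptors (median -0.17) had an unadjusted edgeR p under 0.05.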

How the data were processed

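RNA of whole mammary glands from 3 metformin-treated and 3 control mice was enriched with oligo(dT) and sequenced as paired-end reads. The authors mapped the reads to GRCm38, and HISAT2 and StringTie are listed, with no version, in the submitters' processing notes. The sources used here do not state the annotation, the counting tool or its strand setting. Raw counts per gene were deposited by the authors as whole numbers, with no normalization between samples. The FPKM values deposited by the authors are per length and served for levels between genes and as an alternative. NewGene features are gene models that the authors assembled.

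Counts were tested in R 4.3.3 with edgeR 4.0.16, with filterByExpr and TMM, by the quasi-likelihood test over 15925 of 25160 features, with Benjamini-Hochberg adjustment. The approximate SE was derived from the log2 fold change and its F statistic. Levels are TMM-normalized CPM. Alternatives were DESeq2 1.42.0 and limma-voom with a quality weight per library (limma 3.58.1). Others were RLE and upper quartile normalization, no filter, a minimum of 10 counts, and leaving out NewGene features. Further ones were a replicate block and log2 FPKM with a pseudocount of 1 or 0.1. Each mouse was also left out in turn, and control 3 was taken as the only control, where the spread comes from the metformin mice. The procedure was tested on simulated counts. Collagen types were assigned from general knowledge, and chain sequences came from GENCODE vM21 and promoters from RefSeq. Every member is named. Values per mouse are given for members past the thresholds, with an unadjusted p under 0.05 or among the most abundant 3 of a type. They are also given for synthesis, processing and receptor genes with an unadjusted p under 0.05. The marker lists are given as sums with only some genes named, and not every marker with an unadjusted p under 0.05 is among those. The members and lists were chosen with earlier results of these data known.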

Additional observations from a re-analysis of the deposited data

How the results depend on the processing

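Over 378 comparisons, of the 21 members given with values per mouse by rule with 18 alternatives each, 336 kept their direction and side of the thresholds, 20 kept the direction and lost the call, 9 gained it and 13 changed sign. None of the 13 concerned a member called on all mice. The 20 lost calls could come only from the 4 members called on all mice. Col4a5 lost its call in 10 of its 18 alternatives, Col9a1 in 6, and Col8a1 and Col11a1 in 2 each. With control mouse 3 as the only control the log2 fold change was -0.24 for Col4a1, -0.073 for Col4a2, -0.32 for Col15a1, -0.35 for Col3a1, -0.15 for Col1a2, -0.15 for Col6a2 and -0.27 for Col6a1. With each mouse left out it ran from -0.041 to 0.46 for Col15a1, from -0.30 to 0.13 for Col13a1 and from -0.25 to 0.14 for Col23a1. The cause was not tested.

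Against 4 collagen chains past the thresholds on all mice, DESeq2 gave 6, limma-voom 5, log2(FPKM + 1) 2, and the same without a filter 1. With each mouse left out the count ran from 1, without metformin-treated mouse 3, to 9, without control mouse 3, which added Col1a1, Col3a1, Col5a3, Col6a3 and Col6a6. Over all genes, 271 passed, against 519 with DESeq2, 401 with limma-voom, 177 with log2(FPKM + 1) and 98 without a filter on it. The count over all genes ran from 107 to 666 with a mouse left out. Taking control mouse 3 as the only control, the log2 fold change was -0.86 for Col9a1, -1.75 for Col11a1, -1.15 for Col8a1 and -0.43 for Col4a5. Members whose groups did not overlap numbered 6 on all mice. The number was 22 with control mouse 3 alone, where any value outside the metformin range counts. It ran from 7 to 20 with a mouse left out, where fewer samples can overlap. No share over all features was computed beside the 22 or the 7 to 20. These numbers therefore cannot tell whether collagen chains differed from other genes in those settings. For synthesis, processing and receptor genes the count past the thresholds was 0 on all mice. It was 1 with DESeq2 and with limma-voom (P3h2 in both), and 0 to 1 with a mouse left out. The median log2 fold change of the collagen chains ran from -0.17 to 0.14 with a mouse left out, so its sign was not stable. With the replicate block, 118 genes and 2 collagen chains (Col11a1 and Col8a1) passed, and 1 pathway gene (Loxl1). The deviations of same-numbered mice correlated at -0.349, -0.137 and -0.0133, which gave no sign of pairing by number. Deviations from the mean of 3 mice are tied to each other, so these values cannot settle whether the mice were paired. With 3 mice per group, low members such as Col11a1 rest on a level of few CPM, and outlying mice were not tested in groups of this size.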
